A study of Mus musculus with 6 samples.

Results

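Transcripts of 10 G protein-coupled receptors through which amines, lipids and proteases can evoke itch were followed in dorsal root ganglia of adult mice. The receptors were chosen by name from the deposited count files: Htr1d, Htr7, Htr2a and Htr1f for serotonin, Hrh1 for histamine, Cysltr2 for cysteinyl leukotrienes, S1pr3 and S1pr1 for sphingosine 1-phosphate, and F2r and F2rl1 for proteases. All 10 were found among the 55809 gene symbols, and all 10 passed the low-count filter that left 20146 genes for testing. Every library was a pool of ganglia from 3 C57BL6J mice aged 8 weeks, with no transgene or other allele named in the labels. In the prenatal stress group (3 pools) the dams had been restrained in tubes under bright light, 3 times a day for 30 min, in late gestation, and dams of the control group (3 pools) were undisturbed. Because mice were pooled and litters are not named, a p-value here measures the spread between pools. The comparison asked whether the adult ganglion carries other levels of these transcripts after stress of the dam.

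A dorsal root ganglion holds the cell bodies of the sensory neurons of the trunk and limbs with their satellite glia, Schwann cells, vessels and resident immune cells. Itch begins when a pruriceptor, a small sensory neuron with endings in the skin, is excited by a substance released there, often by mast cells, keratinocytes or immune cells. Receptors coupled to Gq activate phospholipase C, which opens TRP channels, whereas receptors coupled to Gi lower cyclic AMP and those coupled to Gs raise it. Protease-activated receptors work in another way: a protease cuts their outer end, and the new end folds back and activates the receptor itself.

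None of the 10 receptors passed the test, where 0.129% of all genes did (26 of 20146; edgeR quasi-likelihood test, Benjamini-Hochberg adjusted p under 0.05). Of the 10, 6 had positive and 4 negative log2 fold changes (stress minus control), where 52.3% of all genes were positive. Their median was 0.03 and that of all genes 0.01. At an unadjusted p under 0.05 there were 2 receptors, where 11.1% of all genes reached it: S1pr3 was lower (5.11% of all genes were) and F2r higher (6.01%). The same 2 receptors were those whose control and stress pools did not overlap. That held for 18.1% of all genes, with 8.76% of all genes lower and 9.33% of all genes higher. The 95% interval of the log2 fold change lay within 1 unit of 0 for all 10 receptors and within 0.5 for 8 of them, the exceptions being Htr1f and F2rl1. The DESeq2 Wald test called 1 receptor, S1pr3 (adjusted p = 0.0447), among 330 genes.

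The bases upstream of the start of S1pr3 and F2r are shown because these were the receptors whose pools did not overlap between groups, in opposite directions. Each run is the 250 bases before the RefSeq start, 5′ to 3′ along the gene, on build GRCm38.p6: S1pr3 at chr13:51408368-51408617 on the plus strand and F2r at chr13:95618467-95618716 on the minus strand. Capitals mark matches, on either strand, to the AP-1 letters TGANTCA, the GC box GGGCGG or the letters AGAACA that a single glucocorticoid receptor unit binds.
S1pr3: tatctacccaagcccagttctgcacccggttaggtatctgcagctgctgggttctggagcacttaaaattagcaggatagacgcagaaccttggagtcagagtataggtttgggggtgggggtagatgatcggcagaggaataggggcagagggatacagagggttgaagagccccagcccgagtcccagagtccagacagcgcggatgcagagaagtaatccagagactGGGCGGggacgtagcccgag
F2r: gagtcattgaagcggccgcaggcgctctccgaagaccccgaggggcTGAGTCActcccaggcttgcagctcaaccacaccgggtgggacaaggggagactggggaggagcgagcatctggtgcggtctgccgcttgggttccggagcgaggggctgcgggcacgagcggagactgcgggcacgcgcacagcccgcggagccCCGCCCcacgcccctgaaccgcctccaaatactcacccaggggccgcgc
The F2r run held 1 AP-1 match and 1 GC box match, and the S1pr3 run held 1 GC box match. The GC content was 70.8% for F2r and 56.4% for S1pr3. A promoter entry matched 8 of the 10 receptors, with 12 starts in all, and none was found for S1pr1 and F2rl1. GC box letters stood upstream of 5 of the 8 genes, AP-1 letters upstream of 2 (F2r and 1 start of Hrh1), and AGAACA upstream of 2 (Htr2a and 1 start of Hrh1). Counted by window, 7 of the 12 held the GC box letters, 2 the AP-1 letters and 2 AGAACA, and some windows of Hrh1 overlap each other. Among all 32851 RefSeq windows of that length, 32.7% held the GC box letters, 6.75% the AP-1 letters and 16.1% AGAACA. A gene with several starts has more windows in which to match, so the counts by gene are not comparable with these shares. These matches are a description of the letters and say nothing of binding.

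The libraries held 51.7 to 87.4 M gene counts, and no receptor had fewer than 37 counts in a pool. Summed skeletal muscle markers stood at 2050 CPM (counts scaled to a common library size with TMM factors) in control pool 3 and at 12.5 to 39.7 CPM in the other pools. None of the receptors passed with or without control pool 3, so that count cannot show whether the muscle mattered. Without that pool the log2 fold change of S1pr3 went from -0.14 to -0.16, F2r from 0.15 to 0.16 and S1pr1 from -0.10 to -0.04. Xist had 9 to 19 counts and the Y-linked gene Ddx3y 4164 to 7068 counts in each pool. By these counts all pools look male, while the labels name both sexes for the study, so the comparison does not cover females. Fewer cells of a type and less RNA per cell cannot be told apart in bulk ganglia.

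**Figure D1:**
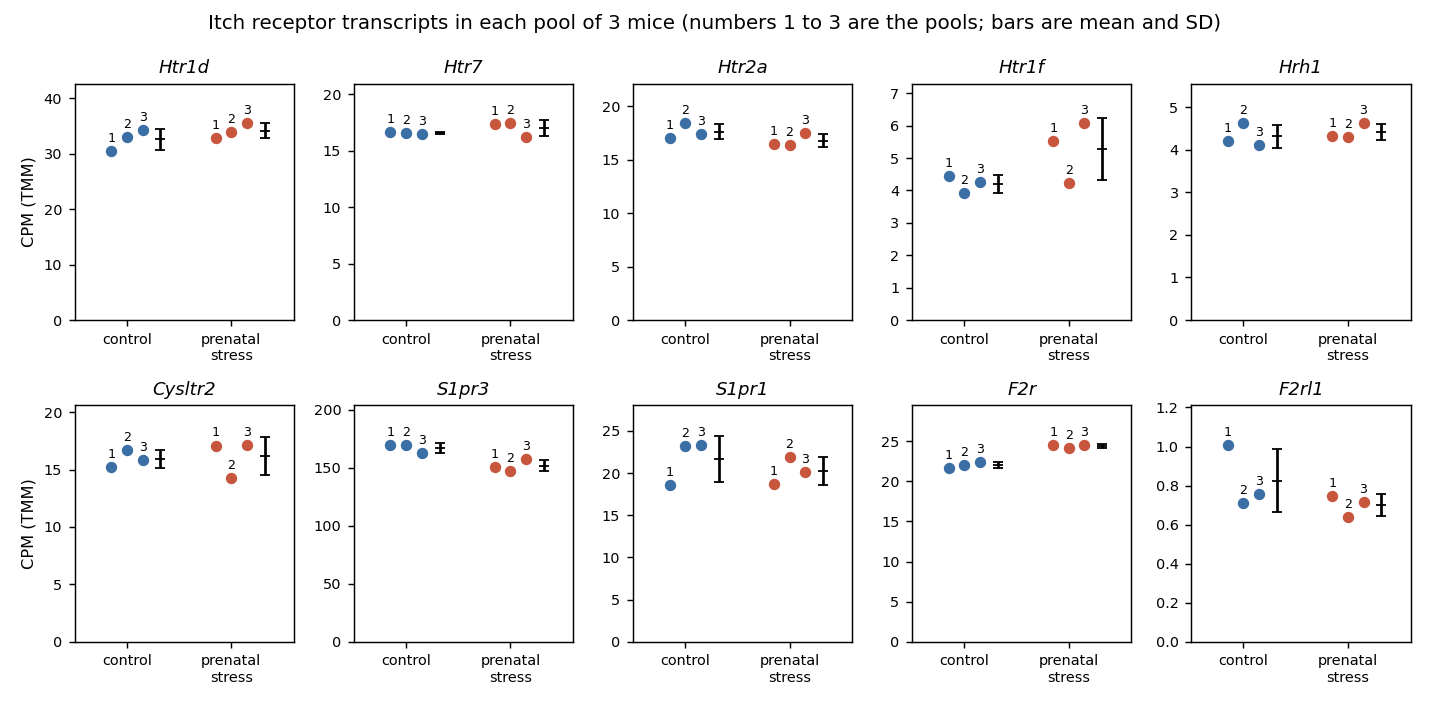
CPM of each receptor (y axis, from 0) in the 3 control pools (blue) and 3 prenatal stress pools (red), numbered by pool, with mean and SD beside them. The stress pools of S1pr3 all lie below the control pools, those of F2r all lie above, and the other 8 receptors overlap between groups.

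The serotonin receptors differed more in level than between the groups. Htr1d, a Gi-coupled receptor that is a target of triptans, stood at 30.6, 33 and 34.2 CPM in control pools 1 to 3 and at 32.9, 33.9 and 35.5 CPM in stress pools 1 to 3. The groups overlapped, and the log2 fold change was 0.06 ± 0.05 (SE; edgeR adjusted p = 0.697). Htr7, a Gs-coupled receptor that has been tied to serotonin-evoked itch through the channel Trpa1, stood at 16.6, 16.6 and 16.5 CPM in controls. Its stress pools were at 17.4, 17.5 and 16.2 CPM, so pools 1 and 2 lay above and pool 3 below every control pool (0.04 ± 0.05, edgeR adjusted p = 0.812). The 95% interval for Htr7 ran from -0.08 to 0.16.

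Htr2a, which couples to Gq, stood at 17.1, 18.4 and 17.4 CPM in control pools and 16.5, 16.4 and 17.5 CPM in stress pools. Stress pools 1 and 2 lay below the controls and stress pool 3 within them (-0.07 ± 0.05, edgeR adjusted p = 0.661). Htr1f, a Gi-coupled receptor found in the pruriceptors that make natriuretic peptide Nppb, had the highest log2 fold change of the 10. Its levels were 4.45, 3.91 and 4.26 CPM in controls and 5.51, 4.23 and 6.08 CPM in stress pools. Stress pools 1 and 3 were above every control pool, while stress pool 2 was within the control range. The log2 fold change was 0.32 ± 0.14 with a 95% interval of -0.01 to 0.66 (edgeR adjusted p = 0.46). It was 0.46 without stress pool 2 (adjusted p = 0.325) and 0.21 without stress pool 3 (adjusted p = 0.686).

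The spread of Htr1f within the stress group was wider than in controls (17.9% against 6.5% of the mean, SD over 3 pools). Within the stress group Htr1f was lowest in pool 2 and highest in pool 3, while control pool 2 was the lowest of all 6 pools. Stress pool 2 was the lowest and stress pool 3 the highest of the 6 pools for Il31ra, Osmr and Mrgpra3. Mrgpra3 marks the other main pruriceptor class, and Il31ra and Osmr belong to the class of Htr1f. These genes were singled out from the 8 pruriceptor markers after their values were seen, and pool values of Nppb, Mrgprx1 and Jak1 are not given. Il31ra, a receptor chain for the itch cytokine interleukin 31, stood at 50.5, 43 and 59 CPM in stress pools 1 to 3, against 49.6 to 53.6 CPM in controls. Its partner chain Osmr stood at 57.1, 50.2 and 62.6 CPM, against 58.8 to 59.9 CPM. Mrgpra3 stood at 12.6, 11.8 and 14.6 CPM, against 12.6 to 13.9 CPM. The peptide Sst had the opposite order within the stress group, with 7.05, 10.4 and 6.43 CPM. The neuropeptide Nts, also of this class, was the only one of 92 tested cell type markers that passed, and it fell from 23 ± 3.65 to 9.87 ± 1.22 CPM (SD, n = 3 pools each; -1.22 ± 0.13 SE, edgeR adjusted p = 0.0297). Its stress pools stood at 9.41, 11.3 and 8.95 CPM, the order of Sst. With all 6 pools Nts was also called in every other setting, DESeq2 among them (adjusted p = 2.68e-17). Its edgeR call held without control pool 1 and was lost when any of the other 5 pools was left out. Of the 8 pruriceptor markers, 3 had positive and 5 negative values, with a median of -0.00.

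For histamine, Hrh1 is the Gq-coupled receptor of classical antihistamines. It stood at 4.21, 4.62 and 4.12 CPM in controls and at 4.33, 4.29 and 4.63 CPM in stress pools, and the groups overlapped. The log2 fold change was 0.03 ± 0.09, with a 95% interval of -0.18 to 0.25 (edgeR adjusted p = 0.93). Cysltr2, the leukotriene receptor of the Nppb pruriceptors, stood at 15.2, 16.7 and 15.8 CPM in controls and at 17.1, 14.2 and 17.2 CPM in stress pools. Stress pool 2 was below and stress pools 1 and 3 above all controls. Within the stress group pool 2 was the lowest and pool 3 the highest, as for Htr1f, whose stress pool 2 lay within the control range. The mean difference was small beside this spread (0.02 ± 0.08, 95% interval -0.17 to 0.22, edgeR adjusted p = 0.947), and leaving out control pool 1 or stress pool 1 or 3 turned its sign.

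S1pr3 was the most abundant of the 10 receptors. It is a receptor for sphingosine 1-phosphate, has been tied to both itch and pain, and couples to several G proteins. Its levels were 169, 170 and 162 CPM in control pools and 151, 147 and 157 CPM in stress pools, so the highest stress pool lay below the lowest control pool. The stress pools were 0.908-fold the controls (log2 fold change -0.14 ± 0.04, 95% interval -0.23 to -0.05, unadjusted p = 0.00658, edgeR adjusted p = 0.298). The log2 fold change ranged from -0.17 to -0.12 over 17 other ways of running the test, and the adjusted p from 0.0447 to 0.634. Satellite glia markers, summed over 6 genes, stood at 1440 to 1640 CPM in control and 1289 to 1525 CPM in stress pools, and all 6 had negative values with a median of -0.10. Among them Fabp7 stood at 152 ± 14 and 104 ± 18.3 CPM (-0.55 ± 0.13, edgeR adjusted p = 0.273; 0.0447 by DESeq2). All 6 myelinating Schwann cell markers were negative too, with a median of -0.08. Ncmap among them was at -0.23 ± 0.07 (edgeR adjusted p = 0.337; 0.0439 by DESeq2). Neuron markers stood at 6923 to 7100 and 6604 to 6829 CPM, with a median of 0.01 over 6 genes. Among them Tubb3, a neuronal tubulin, stood at 2144 ± 103 and 1894 ± 64.2 CPM with no overlap (-0.18 ± 0.05, unadjusted p = 0.00604, edgeR adjusted p = 0.297; 0.00551 by DESeq2), and the other 5 lay between -0.02 and 0.06. The part of glia, Schwann cells or neurons in the S1pr3 values was not tested. A noncoding gene on the other strand, Gm32834, shares 45 bases of exon with S1pr3 and had 4 to 16 counts in each pool.

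S1pr1, the Gi-coupled receptor best known from vessels and lymphocytes, stood at 18.53, 23.2 and 23.4 CPM in controls and at 18.7, 22 and 20.1 CPM in stress pools. Pool 1 was the lowest in each group, and the groups overlapped (-0.10 ± 0.10, 95% interval -0.34 to 0.14, edgeR adjusted p = 0.773). With the replicate number as a block the value was -0.09 ± 0.06. Leaving out 1 pool moved it from -0.20 ± 0.07 without control pool 1 (edgeR adjusted p = 0.542) to -0.05 without control pool 2, -0.04 without control pool 3 and -0.05 without stress pool 1. It was -0.16 without stress pool 2. Endothelial markers, summed over 8 genes, stood at 120 to 126 CPM in control pools and at 119 to 124 CPM in stress pools, and 0 of 8 had an unadjusted p under 0.05.

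Of the protease receptors, F2r answers to thrombin and is found on many cells of vessels, glia and connective tissue. It stood at 21.6, 22 and 22.3 CPM in control pools and at 24.5, 24.1 and 24.5 CPM in stress pools, with a narrow spread in both and no overlap. The stress pools were 1.11-fold the controls (log2 fold change 0.15 ± 0.04, 95% interval 0.05 to 0.24, unadjusted p = 0.00672, edgeR adjusted p = 0.298). Over the 17 other ways the value ranged from 0.14 to 0.16 and the adjusted p from 0.23 to 0.634. Fibroblast markers summed to 1125 to 1602 CPM in controls and 1214 to 1410 CPM in stress pools (3 of 6 positive), mural cell markers to 387 to 424 and 372 to 439 CPM (1 of 8 positive). The smallest p in each list belonged to Pdgfra, a fibroblast marker (0.19 ± 0.08, edgeR adjusted p = 0.437), and Notch3, a mural one (-0.16 ± 0.06, edgeR adjusted p = 0.386). The part of fibroblasts and mural cells in the F2r values was not tested.

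F2rl1 answers to trypsin-like proteases such as mast cell tryptase and is the protease receptor most often named in itch. It was the rarest of the 10, with 37 to 70 counts in a pool. Its levels were 1.01, 0.709 and 0.757 CPM in controls and 0.749, 0.637 and 0.717 CPM in stress pools, with control pool 1 apart from the other 5. The log2 fold change of -0.23 ± 0.19 had a 95% interval of -0.69 to 0.22 (edgeR adjusted p = 0.701) and was -0.07 without control pool 1.

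**Figure D2:**
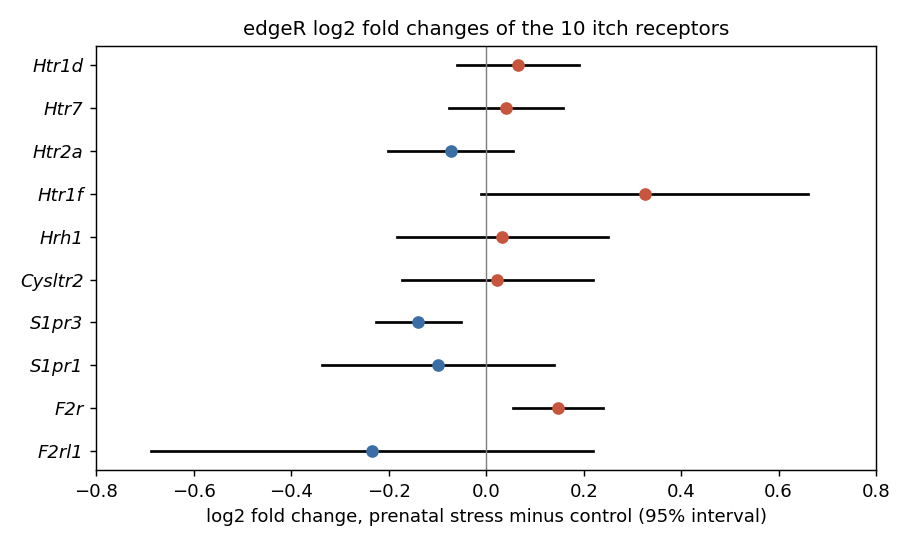
Log2 fold change of each receptor in prenatal stress against control pools (points, edgeR; red positive, blue negative) with its 95% interval (lines) on a linear axis. The intervals of S1pr3 (-0.23 to -0.05) and F2r (0.05 to 0.24) leave out 0 before adjustment for the number of genes, and those of Htr1f and F2rl1 are the widest.

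Levels of different genes were compared as CPM per kb of the longest annotated transcript, as means over all 6 pools. S1pr3 was first at 35.7 CPM per kb (33 to 38 over pools), followed by Htr1d at 11.5 and Cysltr2 at 9.11. F2r at 6.95 (6.49 to 7.36) and S1pr1 at 6.89 (6.08 to 7.67) came next and did not differ beyond their spread. Htr7 stood at 5.32, Htr2a at 3.07, Htr1f at 1.84, Hrh1 at 1.15 and F2rl1 at 0.278 CPM per kb. Between all other neighbours in this order the ranges over pools did not overlap. With merged exons as length, Cysltr2 stood at 5.58 CPM per kb and moved below F2r and S1pr1. Which transcript the ganglion uses is not known from gene counts.

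Within their own families the receptors held very unequal shares of the summed CPM per kb. S1pr3 held 80.9% ± 2.06 in controls and 80% ± 2.08 in stress pools (SD, n = 3 pools each), and S1pr1 15.4% ± 1.8 and 15.6% ± 1.14. Cysltr2 held 95.3% ± 0.614 of the leukotriene receptors in controls and 93.2% ± 3.61 in stress pools. Its lowest share, 89.9% in stress pool 3, came with the highest share of Ltb4r1, a leukotriene B receptor of leukocytes, at 8.07%. Neutrophil and marrow markers were also highest in that pool, at 390 CPM against 42.6 to 287 CPM in the others, and their part in the Ltb4r1 value was not tested. Hrh1, Hrh2 and Hrh3 each held about the same share of the histamine receptors, 31.5%, 33.6% and 34.4% in controls, and Hrh4 had 0 to 4 counts in a pool.

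Among protease receptors F2rl2, which presents thrombin to a partner receptor, held 83.5% ± 0.253 in controls and 82.2% ± 0.645 in stress pools. F2r held 13.6% ± 0.388 and 15.1% ± 0.632, and every stress pool (14.5% to 15.7%) lay above every control pool (13.2% to 14%). F2rl1 held 0.62% ± 0.115 and 0.529% ± 0.032. Among the serotonin receptors, Htr3a, which forms an ion channel and is not G protein-coupled, held 51.8% ± 2.55 and 48.9% ± 2.21. Htr1d followed with 12% ± 1.04 and 12.9% ± 0.962, and Htr7, Htr2a and Htr1f held 5.62%, 3.37% and 1.74% in controls.

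**Figure D3:**
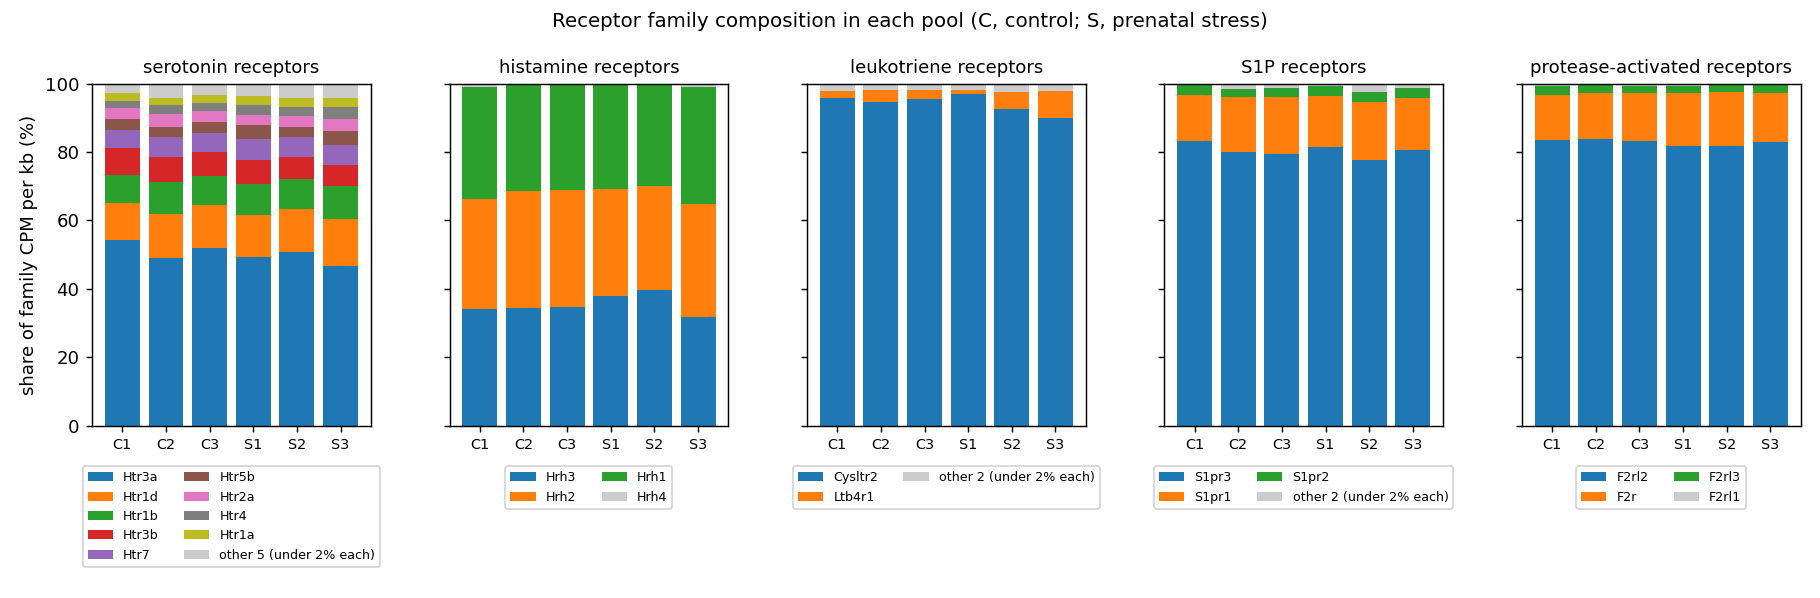
Stacked shares (percent) of each family's summed CPM per kb in control pools C1 to C3 and prenatal stress pools S1 to S3, by receptor. Htr3a, Cysltr2, S1pr3 and F2rl2 hold the largest shares of their families in all 6 pools, while Hrh1, Hrh2 and Hrh3 are near each other.

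The 21 other genes of these 5 families were read from the same fit, and none of the 19 tested passed. Their median log2 fold change was 0.12, with 13 positive and 6 negative, and 3 had an unadjusted p under 0.05 (background 11.1%). These were the serotonin receptors Htr6 (0.62 ± 0.23, with 13 to 31 counts in a pool), Htr4 (0.27 ± 0.11) and Htr1a (0.17 ± 0.07), with edgeR adjusted p of 0.412, 0.437 and 0.437. The groups of Htr6, Htr4, Htr1a and Htr5a did not overlap and were higher in stress pools, and those of the channel subunit Htr3b were lower (16.5 ± 1.45 and 14.5 ± 1.24 CPM, -0.18 ± 0.09, edgeR adjusted p = 0.488). Of all genes tested, 9.33% were higher and 8.76% lower with no overlap. Htr3a stood at 101 ± 9.1 and 93.2 ± 7.81 CPM (-0.11 ± 0.08). Htr2c and S1pr5 varied with the summed spinal cord and oligodendrocyte markers: Htr2c had 348, 201 and 405 counts in control pools 2 and 3 and stress pool 2, where those markers stood at 163, 175 and 265 CPM, and 24 to 44 counts elsewhere, where they stood at 38.2 to 75.7 CPM. S1pr5 had 81, 80 and 121 counts in the same 3 pools and 13 to 26 in the others. Hrh4 and Ltb4r2 were below the filter.

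Genes that make, move or break down the ligands showed no called change in 4 lists. Of 9 amine genes the serotonin transporter Slc6a4 had the lowest value, with 1.21, 0.893 and 0.918 CPM in controls and 0.22, 0.319 and 0.6 CPM in stress pools. Its groups did not overlap, but it rested on 17 to 84 counts in a pool and did not pass (-1.44 ± 0.35, edgeR adjusted p = 0.278). Tph1, which makes serotonin outside the brain, had 22 to 146 counts in a pool, and Hdc, which makes histamine, 97 to 208. Among 6 leukotriene genes, Ggt5, an enzyme that converts one cysteinyl leukotriene to the next, stood at 7.85 ± 0.507 and 6.7 ± 0.545 CPM (-0.23 ± 0.09, edgeR adjusted p = 0.429). Among 8 genes for sphingosine 1-phosphate, the phosphatase Sgpp2 stood at 201 ± 2.96 and 212 ± 0.827 CPM (0.08 ± 0.03, edgeR adjusted p = 0.38) and the kinases Sphk1 and Sphk2 at -0.00 ± 0.09 and -0.06 ± 0.07. Of 16 proteases and inhibitors 9 were tested, and the trypsinogen genes Prss1, Prss2 and Prss3 had 0 counts in all pools. The mast cell tryptase Tpsb2 stood at 1.21 ± 0.193 and 1.2 ± 0.118 CPM. The summed markers of mast cells, a source of histamine, serotonin and tryptase, lay between 98.2 and 101 CPM in every pool, and of the 6 tested 1 was positive, 5 were negative and none passed (median -0.21). Nearly all of that sum was Kit, at 92.7 ± 1.72 and 94.4 ± 0.948 CPM, while the carboxypeptidase Cpa3 stood at 1.67 ± 0.112 and 1.36 ± 0.111 CPM (-0.30 ± 0.14, edgeR adjusted p = 0.471).

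Downstream, 23 G proteins, phospholipases C, kinases and receptor-silencing proteins had 16 positive and 7 negative values with a median of 0.04, and none passed. Plcb3, the phospholipase C that histamine signalling uses in sensory neurons, stood at 587, 629 and 602 CPM in control pools and at 669, 702 and 677 CPM in stress pools. The groups did not overlap (0.17 ± 0.04, unadjusted p = 0.00222, edgeR adjusted p = 0.25). The kinase Prkce stood at 319 ± 3.55 and 345 ± 6.69 CPM (0.11 ± 0.03, edgeR adjusted p = 0.29), and Gnaq, the Gq subunit, at 485 ± 10.2 and 506 ± 27.9 CPM (0.06 ± 0.04). Of 5 channels, Trpv1 stood at 170 ± 8.18 and 150 ± 4.45 CPM (-0.19 ± 0.04, edgeR adjusted p = 0.273) and Trpa1 at 88.9 ± 6.45 and 81.3 ± 6.02 CPM (-0.13 ± 0.07, edgeR adjusted p = 0.528). The DESeq2 Wald test called Plcb3 (adjusted p = 0.00237), Prkce (0.0409) and Trpv1 (0.00855).

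**Figure D4:**
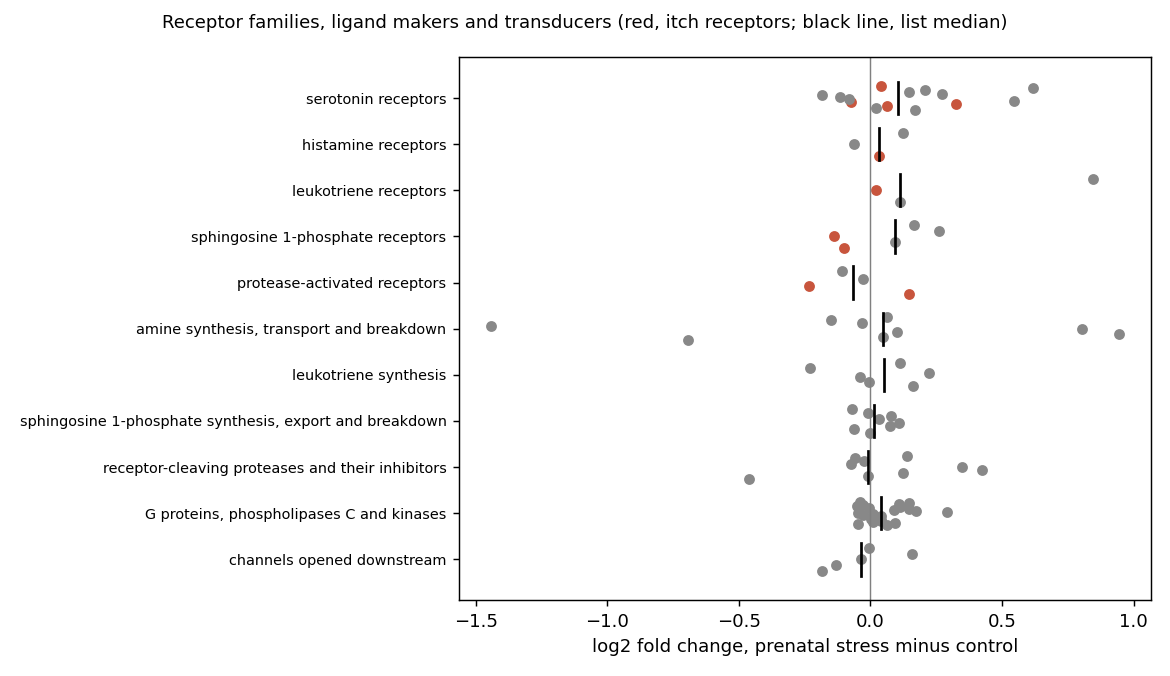
Log2 fold changes (x axis, linear; stress minus control) of every tested gene in 5 receptor families and 6 lists of ligand, protease, transducer and channel genes. Red points are the 10 itch receptors, grey points the other genes and black lines the list medians, which lie between -0.07 and 0.11.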

How the data were processed

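Poly-A selected, stranded, paired-end libraries were made from 6 pools of ganglia with 3000 ng of RNA and 11 PCR cycles, per the labels. The stress ran from embryonic day 13 to 18 in the labels' protocols and 13.5 to 18.5 in the series' design, which also give 3 and 9 mice per group. The deposited values are raw counts per gene symbol. FastQC, STAR 2.4 and HTSeq 0.9.1 and the builds GRCm39 and mm10 are named in the submitters' processing notes; which build and which strand setting were used is not given in the sources used here. Reads given to no gene (15.3% to 16.2% of a file) were left out.

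The test across genes was that of edgeR 4.0.16 under R 4.3.3 (TMM factors, filterByExpr with a minimum count of 10, quasi-likelihood F test, Benjamini-Hochberg adjustment over 20146 genes, threshold 0.05), and the code was tested on simulated data. The standard error is the log2 fold change divided by the square root of F, and its 95% interval uses the total degrees of freedom. Levels are CPM with TMM factors. Lengths come from GENCODE M21 and promoters from RefSeq (GRCm38.p6). No other M21 transcript matched a receptor at 90% identity over 200 bases (minimap2 2.31-r1302). Alternatives were DESeq2 1.42.0, limma 3.58.1 voom with quality weights, other scalings and filters, a correction for GC content and length, the replicate block and leaving out each pool.

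The receptors and lists were chosen with earlier results of these data known. Named genes are all receptors, all genes of their families, any listed gene that passed, up to 2 of smallest p per list, and genes that define a step. Il31ra, Osmr, Sst, Kit, Mrgpra3 and Plcb3 pool values and the Htr2c and S1pr5 counts were singled out after their values were seen. No libraries agreed within sampling noise (chi-square per degree of freedom 11 to 36.4 over all pairs), so each is 1 replicate. Across genes, deviations of same-numbered pools from their group means correlated at 0.34, 0.22 and 0.13. The main edgeR test did not use this pairing, and the replicate block was run as an alternative. The unadjusted edgeR p of Htr1f was 0.0560 without the block and 0.0277 with it. The values of 1 gene that the naming rule selected are not reported here.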

Additional observations from a re-analysis of the deposited data

How the results depend on the processing

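The count of called genes was 26 and became 330 with the DESeq2 Wald test and 49 without the low-count filter, and it ranged from 2 to 14 when each pool was left out. The count of called receptors was 0 in all alternatives but the DESeq2 test, which called 1 (S1pr3, -0.14, adjusted p = 0.0447; 2 receptors had an unadjusted p under 0.05 in the edgeR test), and DESeq2 gave no adjusted p for F2rl1. F2rl1 was not tested where a mean of 1 CPM was asked for. Of the 184 other listed genes 1 was called, 7 with DESeq2, and 0 to 1 when each pool was left out (0 without control pool 2 or 3 or any stress pool). With the replicate block 22 genes and 0 receptors were called, with S1pr3 at an adjusted p of 0.323 and F2r at 0.334; it changed no receptor's call. Leaving out each pool in turn gave Hrh1 log2 fold changes from -0.0080 to 0.078, negative without control pool 3 or stress pool 3, and Cysltr2 values from -0.027 to 0.10, negative when the first pool of either group or the third stress pool was omitted. The values of Htr1d (0.02 without control pool 1, 0.03 without stress pool 3, 0.10 without control pool 3), Htr7 (0.02 without stress pool 1 or 2, 0.07 without stress pool 3), Htr2a (-0.05 without control pool 2, -0.11 without stress pool 3) and Htr1f (0.21 without stress pool 3) moved by over 1.5 times, and none was called. Those of S1pr1 (-0.20 without control pool 1, -0.04 without control pool 3) and F2rl1 (-0.07 without control pool 1) did too, also without a call. With voom quality weights Htr1d was at 0.04, S1pr1 at -0.15 and F2rl1 at -0.15. Merged exon lengths moved the family shares of Htr7 from 5.76% to 5.46%, Htr1d from 12.4% to 11.5%, Cysltr2 from 94.3% to 91% and Hrh1 from 31.6% to 33.2%, and leaving out a pool, tried after seeing the data, moved no share by more than the spread between pools. The cause of the other differences was not tested. Precision is limited by 3 pools per group, and F2rl1 had the fewest counts of the 10 receptors, 37 to 70 in a pool.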
